A study of Homo sapiens with 9 samples.

Results

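The 9 genes described here encode signalling factors of the interferon pathway and were chosen by name: the receptor chains IFNAR1 and IFNGR1, the kinase JAK2, the transcription factors STAT2 and STAT3, and the interferon regulatory factors IRF1, IRF2, IRF7 and IRF9. The choice was made with earlier results of these data known. They are 9 of the 18430 genes of the deposited expression table, and all 9 passed the filter on low counts, which 13989 genes passed. RNA was sequenced from A375, an established human melanoma cell line labelled BRAFV600E in every group, so that all libraries carry the activating BRAF mutation. Control cells were kept in normal culture (3 libraries). Another 3 libraries came from cells given vemurafenib, which blocks the mutant BRAF kinase, at 10 µM for 3 days, and 3 from cells given cisplatin, which crosslinks DNA, at 2 µM for 1 day. The treated cells went back to drug-free culture and were harvested on day 7, so the values describe cells after the drug had been withdrawn. All libraries come from 1 cell line.

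Type I interferons bind a receptor made of IFNAR1 and IFNAR2, and interferon-gamma binds one made of IFNGR1 and IFNGR2. The receptors carry Janus kinases, JAK2 with JAK1 on the interferon-gamma receptor, which phosphorylate STAT proteins. STAT2 and IRF9 act in the complex ISGF3, which binds the interferon-stimulated response element of antiviral genes, whereas STAT dimers bind the gamma-activated sequence of other genes, among them IRF1. IRF1 and IRF2 recognise the same DNA element, IRF1 as an activator and IRF2 mostly as a repressor. IRF7 drives transcription of type I interferon genes downstream of nucleic acid sensors, and STAT3 serves mainly the receptors of the IL-6 cytokine family. The kinases, the STATs and IRF7 are switched on by phosphorylation, which RNA-seq does not measure.

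The genes lie on 9 different chromosomes of GRCh38.p14. IFNAR1 (gene identifier 3454) is at chr21:33324395-33359864, IFNGR1 (3459) at chr6:137197484-137219385 and JAK2 (3717) at chr9:4984390-5129948. STAT2 (6773) is at chr12:56341597-56360107 and STAT3 (6774) at chr17:42313324-42388442. IRF1 (3659) is at chr5:132481609-132490773, IRF2 (3660) at chr4:184387729-184474550, IRF7 (3665) at chr11:612555-615950 and IRF9 (10379) at chr14:24161265-24166565. The deposited values are per gene, with no split into exons or UTRs.

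The 250 bases before the RefSeq start of STAT2, STAT3 and IRF9 are printed because these genes were higher after both drugs, and those of IRF1 because it was not and its promoter is a textbook target of interferon-gamma signalling. Each is written 5′ to 3′ along the gene's own strand (GRCh38.p14, minus strand for IRF1, STAT2 and STAT3, plus strand for IRF9). Capitals mark the gamma-activated sequence TTCNNNGAA, which reads the same on both strands.
STAT2, chr12:56360108-56360357: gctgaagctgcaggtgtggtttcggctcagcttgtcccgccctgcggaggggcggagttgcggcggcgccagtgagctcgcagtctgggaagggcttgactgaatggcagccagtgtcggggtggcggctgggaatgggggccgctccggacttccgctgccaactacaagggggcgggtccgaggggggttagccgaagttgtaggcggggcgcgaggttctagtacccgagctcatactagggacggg
STAT3, chr17:42388443-42388692: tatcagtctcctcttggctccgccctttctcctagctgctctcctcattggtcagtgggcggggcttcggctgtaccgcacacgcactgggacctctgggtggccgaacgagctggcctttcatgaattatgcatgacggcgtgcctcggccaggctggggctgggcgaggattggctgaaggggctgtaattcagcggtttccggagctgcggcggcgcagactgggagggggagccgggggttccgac
IRF9, chr14:24161015-24161264: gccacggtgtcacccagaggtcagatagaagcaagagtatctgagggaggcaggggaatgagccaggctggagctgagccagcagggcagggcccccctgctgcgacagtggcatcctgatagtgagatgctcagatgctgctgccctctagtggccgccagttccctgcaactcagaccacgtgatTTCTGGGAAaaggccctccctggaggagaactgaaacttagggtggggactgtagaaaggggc
IRF1, chr5:132490774-132491023: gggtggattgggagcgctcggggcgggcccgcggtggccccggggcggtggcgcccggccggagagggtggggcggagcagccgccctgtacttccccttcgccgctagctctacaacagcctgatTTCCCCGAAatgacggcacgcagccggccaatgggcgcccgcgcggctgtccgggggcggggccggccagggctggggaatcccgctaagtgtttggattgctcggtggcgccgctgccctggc
In the RefSeq table of windows from 250 bases before to 50 bases after the start, 7 of the 9 genes had an entry, all but IRF2 and IRF7. JAK2 had 4 windows, IFNAR1 and IFNGR1 had 2 each, and the others had 1 each. TTCNNNGAA was found in the windows of 2 genes, with its first base 124 bases before the start of IRF1 and 63 bases before the start of IRF9. Of 35116 promoter windows of the same length in that table, 7.66% held it, a share per window and not per gene. The core of the interferon-stimulated response element was searched on both strands, was in none of these members' windows, and was in 3.57% of all windows. These are letter matches only.

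Library totals ran from 14481020 to 16038475 estimated counts. Levels are given as CPM, the counts of a gene relative to the library size, after TMM scaling, and levels of different genes are compared in TPM, a unit that accounts for gene length. The labelled cell type was checked with markers: SOX10, a melanoma lineage factor, was at 778.7 to 1190 CPM in all libraries, while the pigment cell genes MLANA and TYR were at or under 0.3996 CPM. PMEL, another pigment cell gene, had means of 1.72 CPM in controls, 1.68 after vemurafenib and 4.318 after cisplatin. The summed melanoma and melanocyte list (10 genes) was at 2800 to 3310 CPM in controls, 2410 to 2880 after vemurafenib and 2700 to 3720 after cisplatin, but some of its genes differed between groups. The pigment gene DCT was at most 0.1926 CPM in controls, 164.6 to 367.3 after vemurafenib and 0.3996 to 1.038 after cisplatin, and S100B was at 13.93 to 16.32, 230.7 to 328.9 and 121.3 to 165.8 CPM. MITF rose after vemurafenib by 1.20 on the log2 scale and CSPG4 fell by 2.80. The leukocyte gene PTPRC was at 0 in controls and at most 0.3996 CPM elsewhere, and the T and B cell genes CD3E and MS4A1 were at or near 0. NCAM1, also listed as an immune marker, had means of 12.43 CPM in controls, 2.583 after vemurafenib and 1.019 after cisplatin. The summed immune list (11 genes in the table) was at 90.2 to 132 CPM in controls, 104 to 122 after vemurafenib and 210 to 239 after cisplatin, with CD68, a gene of lysosomes and macrophages, making up most of it, and the endothelial sum (4 genes) was at 17.8 to 22.9, 9.04 to 27.9 and 52.7 to 60.3 CPM, with KDR making up most of it and CDH5 at or under 0.06923 CPM. In the same order of groups the fibroblast sum (7 genes) was at 21.3 to 25.5, 30.8 to 42.1 and 17.1 to 30.2 CPM. Its genes went both ways: LUM had means of 3.126, 12.79 and 13.0 CPM, and PDGFRB 14.32, 17.47 and 5.142. The keratinocyte sum (5 genes) was at 18.0 to 22.1, 16.1 to 25.2 and 18.3 to 22.5 CPM, with KRT10 making up most of it. The part of these marker differences in the results was not tested. Vemurafenib replicate 1 stood apart on the third principal component (5.8% of the variance), at 40.8 against -23.2 and -23.7. Its deviation from the other 2 vemurafenib libraries followed gene length (Spearman's rho -0.591 across 13989 genes, which are not independent replicates). Changes of the 9 genes after vemurafenib, and some list counts, are therefore also given without it. Values of other single genes include it unless stated. The labels do not say that replicates were separate cultures, and p-values therefore cover only the spread among these libraries, some or all of which could be technical.

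Against control, several factors of the pathway were higher after cisplatin, and a smaller number after vemurafenib. After cisplatin 7 of the 9 rose and none fell by edgeR's quasi-likelihood test at an adjusted p of 0.05, namely STAT2, STAT3, IRF9, IRF7, IRF2, IFNGR1 and IFNAR1. Of all genes tested, 22.7% were called higher and 23.5% lower in that comparison. After vemurafenib 3 of the 9 rose (STAT2, STAT3 and IRF9) and none fell, where 22.0% of all genes were called higher and 22.9% lower. A count of 3 in 9 does not set the members apart from the share called higher. Scaled by total counts alone, 5 of the 9 rose after vemurafenib, where 3972 of the 13989 genes tested were called higher. With that scaling 60.0% of all calls in the comparison were upwards, against 49.1% with TMM. Without vemurafenib replicate 1, 5 rose and 1 fell, where 3716 of 14168 genes tested were called higher and 3956 lower. The median log2 change of the 9 genes was 0.55 after cisplatin (0.00 over all genes) and 0.27 after vemurafenib (0.01 over all genes). The libraries did not overlap for 8 of the 9 genes after cisplatin, all higher than control (33.1% of all genes tested were higher in this way), and for 5 of the 9 after vemurafenib, all higher (25.8% of all genes). Both comparisons use the same 3 control libraries. In bulk RNA, more transcript per cell and more cells with the transcript cannot be told apart.

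**Figure D1:**
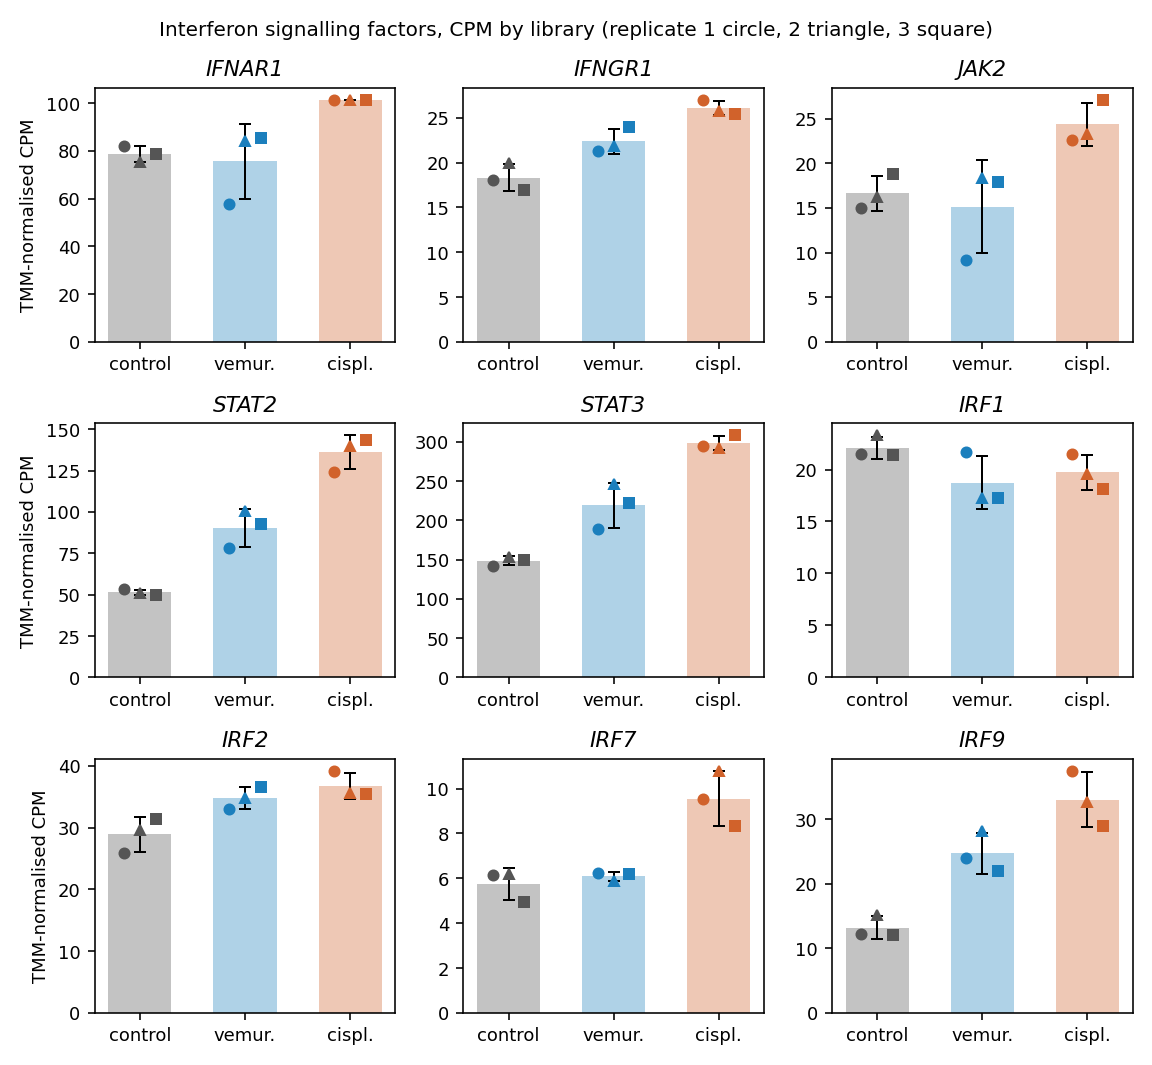
TMM-normalised CPM of the 9 genes in each library (y axis, each panel with its own scale from 0) by group (x axis: control, vemurafenib, cisplatin); bars are group means, error bars ± 1 SD (n = 3), and symbols the libraries. The STAT2, STAT3 and IRF9 panels step up from control to vemurafenib to cisplatin with no overlap between groups, IRF7 is higher after cisplatin with vemurafenib near control, and the 3 groups of IRF1 overlap.

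**Figure D2:**
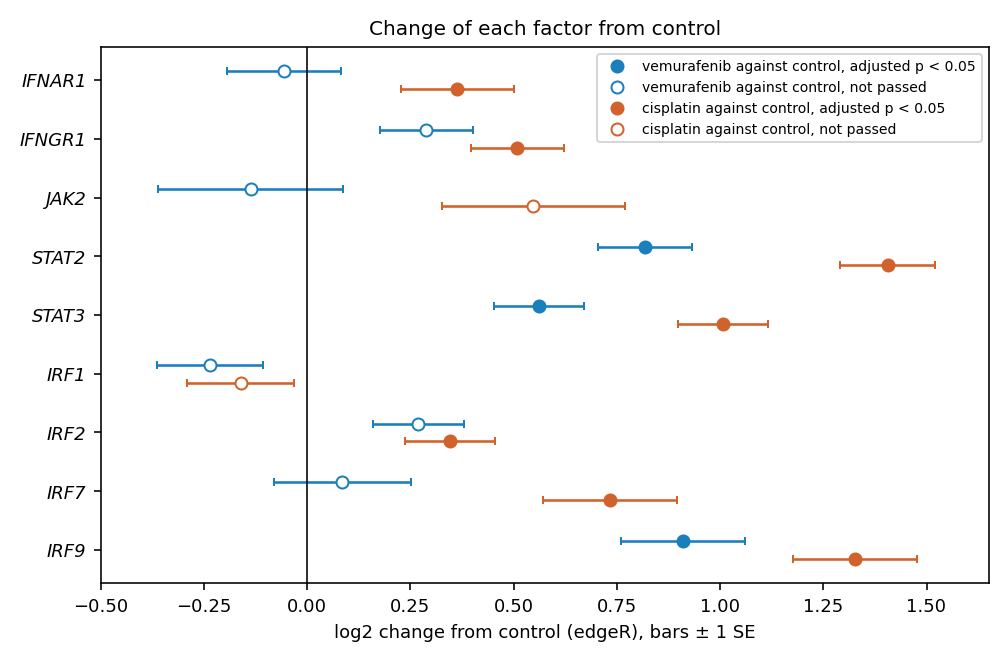
Log2 change from control of the 9 genes (x axis, edgeR, bars ± 1 SE) after vemurafenib and after cisplatin; filled points passed an adjusted p of 0.05. The 7 filled cisplatin points run from 0.35 for IRF2 to 1.41 for STAT2, and the 3 filled vemurafenib points from 0.56 for STAT3 to 0.91 for IRF9.

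At the receptors, IFNAR1, the first chain of the type I interferon receptor, was at 81.9, 75.52 and 78.76 CPM in the control libraries, 57.55, 84.11 and 85.37 after vemurafenib, and 101.4, 101.3 and 101.2 after cisplatin. The cisplatin libraries lay above all others, and vemurafenib replicate 1 lay below every other library. IFNAR1 rose after cisplatin by 0.36 on the log2 scale (SE 0.137, adjusted p = 0.0478). This call was lost without any 1 of the 3 control or 3 cisplatin libraries, without the filter and on both TPM scales (adjusted p up to 0.238). It was strongest without vemurafenib replicate 1, at a log2 change of 0.363 (adjusted p = 0.000261). After vemurafenib the log2 change was -0.06 (SE 0.138, adjusted p = 0.764), and 0.11 without replicate 1 (adjusted p = 0.195, the lowest of its alternatives, which reached 0.908).

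IFNGR1, the ligand-binding chain of the interferon-gamma receptor, was at 18.06, 19.97 and 16.95 CPM in controls, 21.33, 21.88 and 23.93 after vemurafenib, and 27.0, 25.79 and 25.44 after cisplatin. The 3 groups did not overlap. The rise after cisplatin was 0.51 on the log2 scale (SE 0.112, adjusted p = 0.00313) and held in all 19 alternatives. After vemurafenib the change of 0.29 (SE 0.113) missed the threshold (adjusted p = 0.0558). Without vemurafenib replicate 1 it was 0.32 and passed (adjusted p = 0.0184, between 0.0156 and 0.212 over all alternatives).

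The other receptor chains and Janus kinases were split. Of 7 tested, 1 rose and 2 fell after each drug. Over all genes, 22.0% were called higher and 22.9% lower after vemurafenib, and 22.7% and 23.5% after cisplatin. Counts this small do not set the list apart from those shares. No rise was left after vemurafenib when control replicate 1 or 3 or vemurafenib replicate 2 was dropped, and 2 rose after cisplatin without control replicate 2 or vemurafenib replicate 1. IFNGR2, the signalling chain that pairs with IFNGR1, fell after both drugs, from 132.3 ± 10.9 CPM in controls to 45.47 ± 4.57 after vemurafenib and 78.46 ± 5.31 after cisplatin (SD, n = 3). Its log2 changes were -1.54 (adjusted p = 1.23e-06) and -0.75 (adjusted p = 0.000211). IFNAR2, the partner of IFNAR1, was at 24.78 CPM in controls, 22.17 after vemurafenib and 26.71 after cisplatin and passed in neither comparison (adjusted p = 0.273 and 0.458). IFNLR1, the receptor chain for type III interferons, fell after vemurafenib from 12.0 ± 1.83 to 2.028 ± 0.89 CPM (log2 change -2.56, adjusted p = 2.39e-05). After cisplatin it was at 7.421 ± 1.8 CPM, a fall of 0.69 on the log2 scale (adjusted p = 0.0393) that was lost in 7 of 19 alternatives, among them without control replicate 1 or 2 or cisplatin replicate 2 or 3 (adjusted p up to 0.142). IL10RB, which type III interferon and IL-10 receptors share, rose from 30.43 ± 2.35 to 48.36 ± 4.9 CPM after cisplatin (log2 change 0.67, adjusted p = 0.00106) and to 40.51 ± 4.9 after vemurafenib (0.41, adjusted p = 0.0183, and up to 0.0812 when 1 of those 3 libraries was dropped). IFNAR2, IL10RB, IFNAR1 and IFNGR2 are neighbours on chromosome 21, at chr21:33229938-33265664, chr21:33266367-33310182, the position given for IFNAR1, and chr21:33402882-33437516.

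JAK2, the kinase of the interferon-gamma and many cytokine receptors, was at 14.93, 16.19 and 18.81 CPM in controls, 9.105, 18.33 and 17.93 after vemurafenib, and 22.64, 23.28 and 27.1 after cisplatin. The cisplatin libraries lay above all others, and vemurafenib replicate 1 was again the lowest of the 9. The cisplatin change of 0.55 on the log2 scale (SE 0.221) missed the threshold (adjusted p = 0.0615). It passed in 4 of the 19 alternatives, which were the replicate block (0.55, adjusted p = 0.0252), the fit of only the 6 libraries compared, and the fits without vemurafenib replicate 1 or 3, and its adjusted p ranged from 0.00116 to 0.179. After vemurafenib the change was -0.14 (SE 0.224, adjusted p = 0.65), and 0.12 without replicate 1 (adjusted p = 0.425, range 0.336 to 0.933). Of the other Janus kinases, JAK1 and TYK2 passed in neither comparison with control (adjusted p between 0.0788 and 0.572).

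**Figure D3:**
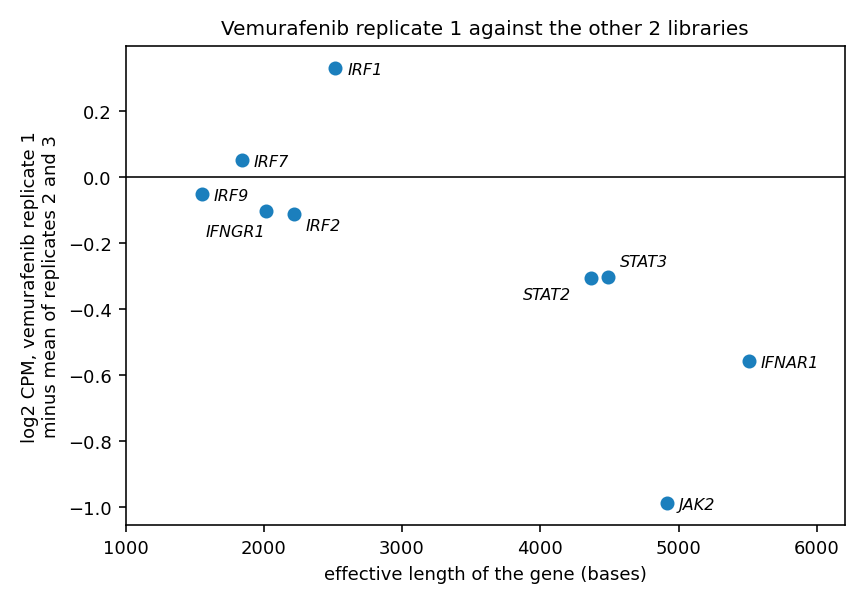
Deviation of vemurafenib replicate 1 from the mean of vemurafenib replicates 2 and 3 (y axis, log2 CPM) against the effective length of each of the 9 genes (x axis, bases). JAK2 (-0.99) and IFNAR1 (-0.56), at 4915 and 5506 bases, lie lowest, STAT2 and STAT3 follow at -0.30, and IRF1 (0.33) lies highest.

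The longest members departed most from the other vemurafenib libraries in replicate 1. JAK2 was lower there by 0.99 on the log2 scale, at an effective length of 4915 bases, and IFNAR1 by 0.56, at 5506 bases. IRF2, IFNGR1, IRF9 and IRF7, between 1551 and 2217 bases, deviated by -0.11 to 0.05. IRF1, at 2515 bases, deviated upwards by 0.33. The part of this length trend in the vemurafenib changes was not tested beyond leaving the library out.

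STAT2, the STAT of ISGF3, was at 53.15, 50.9 and 49.94 CPM in controls, 78.17, 100.8 and 92.4 after vemurafenib, and 124.4, 140.1 and 143.6 after cisplatin. The 3 groups stood in 3 steps with no overlap. It rose after cisplatin by 1.41 on the log2 scale (SE 0.115, adjusted p = 2.21e-06) and after vemurafenib by 0.82 (SE 0.114, adjusted p = 0.000139). Both calls held in all 19 alternatives, and without vemurafenib replicate 1 the second change was 0.91.

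STAT3, which transmits signals of the IL-6 family, was at 141.8, 153.3 and 150.0 CPM in controls, 189.4, 245.8 and 221.5 after vemurafenib, and 294.4, 292.0 and 308.2 after cisplatin. The order of the groups was that of STAT2, again with no overlap. The rise was 1.01 after cisplatin (SE 0.109, adjusted p = 2.15e-05) and 0.56 after vemurafenib (SE 0.109, adjusted p = 0.00139). All 19 alternatives kept both calls, and leaving out vemurafenib replicate 1 gave 0.66. STAT3 was the most abundant of the 9 transcripts per length in every group, at 62.98 TPM in controls, 97.93 after vemurafenib and 132.4 after cisplatin.

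IRF9, the DNA-binding subunit of ISGF3, was at 12.19, 15.2 and 12.07 CPM in controls, 24.0, 28.18 and 21.97 after vemurafenib, and 37.45, 32.57 and 28.97 after cisplatin. No vemurafenib library reached into the control or the cisplatin range. The log2 change was 1.33 after cisplatin (SE 0.15, adjusted p = 2.92e-05) and 0.91 after vemurafenib (SE 0.15, adjusted p = 0.000468), or 0.93 without vemurafenib replicate 1. Both calls held in all 19 alternatives. In the GENCODE v29 annotation the gene AL136295.5 overlaps IRF9 on the same strand by 5513 bases of gene span, and how the authors assigned reads there is not given in the sources used here.

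Since STAT2 and IRF9 act in the same complex, their TPM levels were set against each other. The ratio of STAT2 to IRF9 within a library was 1.54, 1.21 and 1.53 in controls, 1.13, 1.27 and 1.5 after vemurafenib, and 1.18, 1.51 and 1.74 after cisplatin. The groups overlapped, and no difference in the log2 ratio was detected (two-sided exact permutation test, p = 0.5 for vemurafenib and p = 1.0 for cisplatin against control, 0.75 and 1.0 adjusted over the 6 ratio comparisons). With 3 libraries against 3, the smallest p this test can give is 0.1.

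IRF1, the activator that interferon-gamma induces, was at 21.52, 23.29 and 21.37 CPM in controls, 21.72, 17.27 and 17.26 after vemurafenib, and 21.46, 19.61 and 18.11 after cisplatin. One library of each treated group lay within the control range and the other 2 below it. The log2 changes of -0.24 after vemurafenib (SE 0.129, adjusted p = 0.163) and -0.16 after cisplatin (SE 0.13, adjusted p = 0.333) did not pass. Without vemurafenib replicate 1 IRF1 fell by 0.35 after vemurafenib (adjusted p = 0.0142, range 0.0142 to 0.378 over the alternatives). C5orf56 and AC116366.3 overlap IRF1 on the opposite strand in GENCODE v29, by 7094 and 9190 bases of gene span. No label says that the libraries mark strand, so reads from a stretch transcribed in both directions could belong to either gene. Gene spans include introns, and the share of IRF1 reads concerned was not tested.

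IRF2, the antagonist of IRF1, was at 25.82, 29.53 and 31.32 CPM in controls, 33.04, 34.85 and 36.53 after vemurafenib, and 39.18, 35.56 and 35.43 after cisplatin. Every treated library lay above every control library. The rise after cisplatin was 0.35 on the log2 scale (SE 0.11, adjusted p = 0.0232) and was lost without control replicate 1 or 2 or cisplatin replicate 1 or 2 (adjusted p up to 0.103). Without vemurafenib replicate 1 it was 0.345 (adjusted p = 0.0056). After vemurafenib the change of 0.27 (SE 0.11) missed the threshold (adjusted p = 0.0675). It passed with total counts only and without vemurafenib replicate 1 (0.31, adjusted p = 0.0206, range 0.0204 to 0.239).

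Set against each other in TPM, IRF1 stood at 0.777, 0.707 and 0.542 of IRF2 in controls, 0.596, 0.441 and 0.386 after vemurafenib, and 0.486, 0.478 and 0.43 after cisplatin. The cisplatin libraries lay below all controls, and vemurafenib replicate 1 overlapped the controls. The log2 ratio was lower by 0.53 after cisplatin than in controls, with the smallest p the design allows (two-sided exact permutation p = 0.1, 0.6 adjusted). For vemurafenib the difference was -0.52 (exact permutation p = 0.2, 0.6 adjusted), so neither could pass.

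IRF7, which induces type I interferon genes, was at 6.13, 6.171 and 4.942 CPM in controls, 6.243, 5.861 and 6.181 after vemurafenib, and 9.554, 10.79 and 8.324 after cisplatin. Vemurafenib libraries lay among or just above the controls, and all cisplatin libraries above both. It rose after cisplatin by 0.73 on the log2 scale (SE 0.163, adjusted p = 0.00324), in all 19 alternatives. The vemurafenib change was 0.09 (SE 0.166, adjusted p = 0.706), and 0.07 without replicate 1.

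Of 5 further STAT and IRF genes tested, 1 fell and none rose after vemurafenib (1 rose without vemurafenib replicate 3), and 2 rose after cisplatin. Over all genes 22.9% were called lower and 22.0% higher after vemurafenib, and 22.7% higher after cisplatin. Of the 2 cisplatin rises 1 was left without control replicate 1 or cisplatin replicate 1 or 3, and none without control replicate 3 or cisplatin replicate 2. IRF5, which acts downstream of toll-like receptors, fell after vemurafenib from 3.903 ± 0.995 to 1.914 ± 0.547 CPM (log2 change -1.03, adjusted p = 0.00877) and rose after cisplatin to 7.059 ± 0.647 (0.85, adjusted p = 0.0128, lost without control replicate 3 or cisplatin replicate 2, up to 0.0542). IRF3, the constitutive partner of IRF7, was at 58.78 ± 1.77 CPM in controls, 61.35 ± 12.4 after vemurafenib and 74.8 ± 2.16 after cisplatin. Its cisplatin call (0.35, adjusted p = 0.0462) was lost without the filter and without any 1 control or cisplatin library (up to 0.127). Without vemurafenib replicate 1 its adjusted p was 0.000462. STAT5A, STAT5B and STAT6 did not pass against control after either drug. STAT4, IRF4 and IRF8 did not pass the count filter.

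Between the treated groups, 6 of the 9 genes were lower after vemurafenib than after cisplatin and none was higher, where 20.8% of all genes were called lower and 23.0% higher. For 7 of the 9 every vemurafenib library lay below every cisplatin library (26.1% of all genes). Dose, exposure and time without drug differed between the drugs, and these cannot be told apart from the drugs themselves. The log2 difference, vemurafenib minus cisplatin, was -0.59 for STAT2 (SE 0.112, adjusted p = 0.00131) and -0.65 for IRF7 (SE 0.162, adjusted p = 0.00691), both kept in all 19 alternatives. For STAT3 it was -0.45 (adjusted p = 0.00587, lost on both TPM scales, up to 0.0558). JAK2 (-0.69, adjusted p = 0.0261), IFNAR1 (-0.42, adjusted p = 0.0272) and IRF9 (-0.42, adjusted p = 0.0356) passed with less margin. The JAK2 call was lost without cisplatin replicate 2 or 3, the IFNAR1 call without any 1 cisplatin library, and the IRF9 call without vemurafenib replicate 3 or cisplatin replicate 1 or 2 (adjusted p up to 0.092, 0.0738 and 0.15). These 3 calls were also lost on both TPM scales, those of JAK2 and IFNAR1 with only the 6 libraries compared, and those of IFNAR1 and IRF9 with total counts only, so that on either TPM scale 2 of the 9 genes were called lower. Of all 13989 genes tested, 2462 were called lower with log2(TPM + 1) and 2443 with log2(TPM + 0.1), shares that 2 of 9 is near. Leaving out vemurafenib replicate 1 kept all 6 calls, with JAK2 at -0.42 and IFNAR1 at -0.26, and leaving out cisplatin replicate 2 left 3 of them. IFNGR1 (-0.22, adjusted p = 0.131), IRF1 (-0.07, adjusted p = 0.675) and IRF2 (-0.08, adjusted p = 0.599) did not pass.

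Per length, the order of the 9 transcripts shifted between groups. In controls STAT3 (62.98 TPM) was followed by IFNAR1 (29.89), IRF2 (24.69), STAT2 (22.58), IFNGR1 (17.1), IRF1 (16.43), IRF9 (15.98), JAK2 (6.33) and IRF7 (6.253). Libraries overlapped between IRF2 and STAT2, between IFNGR1, IRF1 and IRF9 as neighbours, and between JAK2 and IRF7. After cisplatin the order was STAT3 (132.4 TPM), STAT2 (61.96), IRF9 (42.45), IFNAR1 (36.87), IRF2 (33.1), IFNGR1 (25.88), IRF1 (15.38), IRF7 (10.63) and JAK2 (9.75), and only the last 2 overlapped. STAT2 and IRF9 thus ranked above IFNAR1 after cisplatin and below it in controls. After vemurafenib STAT2 (42.27 TPM) and IRF9 (32.38) also came next after STAT3, but each neighbour from STAT2 through IRF9, IRF2 (31.85), IFNAR1 (27.43) and IFNGR1 (22.49) overlapped the next. IRF1 (14.73), IRF7 (6.907) and JAK2 (6.47) closed that order.

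Across the 9 libraries STAT2 and STAT3 had closely matching profiles (Pearson r of log2 CPM 0.99). IFNAR1 with JAK2 gave 0.954, STAT3 with IRF9 0.947 and STAT2 with IRF9 0.939. IFNGR1 gave 0.937 with STAT3, 0.937 with IRF9 and 0.933 with STAT2. IRF1 correlated negatively with each of the other 8 genes, from -0.596 to -0.089. Among 11330 genes with a mean of at least 5 CPM, the profile most like that of STAT2 was SNAP29 (0.996), that of STAT3 was ZNFX1 (0.996) and that of IRF9 was LRRC8A (0.977), followed by the RNA sensor regulator DHX58 (0.974). IFNGR1 was most like TARS3 (0.982), then the ISGF3 targets MX1 (0.968) and PARP9 (0.965). IFNAR1 was most like STAM2 (0.995), JAK2 like TTC13 (0.986), IRF7 like WIPI1 (0.975), IRF2 like TCAF2 (0.972) and IRF1 like ZFPL1 (0.966). All of these are descriptions over 9 libraries that share the 3 group means. Vemurafenib replicate 1, with its trend in gene length, is among them. It was the lowest library for both IFNAR1 and JAK2, by 0.56 and 0.99 under the other vemurafenib libraries on the log2 scale. Its part in their correlation and in the profiles most like theirs was not tested.

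The rest of the pathway is given by role, from lists chosen beside the 9 genes, also with earlier results of these data known. Ligands were scarce. Of 21 interferon genes listed, 7 were in the table and 1, IFNE, an interferon of epithelial tissues, passed the filter. IFNE fell after vemurafenib from 6.068 ± 0.908 to 0.4976 ± 0.265 CPM (log2 change -3.58, adjusted p = 4.55e-06) and was at 4.136 ± 0.476 after cisplatin (adjusted p = 0.0858). IFNA1, the next highest, was at 0.3318 to 0.6419 CPM in controls, at most 0.1224 after vemurafenib and 0.1357 to 0.3996 after cisplatin.

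Sensors and adaptors that act upstream of IRF3 and IRF7 were mixed. Of 14 tested, 5 rose and 3 fell after vemurafenib, and 6 rose and 1 fell after cisplatin. Among all genes 22.0% were called higher and 22.9% lower after vemurafenib, and 22.7% and 23.5% after cisplatin. The counts of the list moved when a library was left out. After vemurafenib 3 rose without control replicate 1 or 3. After cisplatin 3 rose without control replicate 1 or cisplatin replicate 3, and 3 fell without vemurafenib replicate 1 or 3, or 2 without cisplatin replicate 3. DHX58, a regulator of RNA sensing, rose after both drugs, by 1.23 on the log2 scale after cisplatin and 0.85 after vemurafenib. The RNA sensor RIGI rose after cisplatin from 10.3 ± 2.12 to 23.32 ± 4.35 CPM (1.18, adjusted p = 0.00242) and after vemurafenib to 17.24 ± 5.78 (0.74, adjusted p = 0.0305). The adaptor MYD88 rose by 0.88 and 0.30. After vemurafenib the RIGI call ended in 8 of 19 alternatives, among them limma-voom, both TPM scales and the removal of control replicate 1, control replicate 3, vemurafenib replicate 2 or vemurafenib replicate 3 (adjusted p up to 0.121). Without vemurafenib replicate 1 the RIGI change was 0.99 (adjusted p = 0.000747). The MYD88 call (adjusted p = 0.0309) ended in 6 of 19, among them the removal of any 1 control library, vemurafenib replicate 3 or cisplatin replicate 2 (up to 0.113). The DNA sensor IFI16 rose after vemurafenib from 150.1 ± 8.5 to 295.7 ± 11.4 CPM (0.98, adjusted p = 9.4e-06), and the lipopolysaccharide receptor TLR4 fell from 219.7 ± 42.3 to 23.26 ± 11.7 CPM (-3.24, adjusted p = 1.4e-05). After cisplatin IFI16 was at 172.1 ± 10.5 and TLR4 at 132.2 ± 33.4 CPM (adjusted p = 0.112 and 0.0675).

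Targets of ISGF3, which contains STAT2 and IRF9, were largely higher. Of 27 tested, 20 rose and 2 fell after vemurafenib (median log2 change 0.98), and 18 rose and 1 fell after cisplatin (median 0.99). Across all genes 22.0% were called higher and 22.9% lower after vemurafenib, and 22.7% and 23.5% after cisplatin. Without control replicate 1 or 3, 1 fell after vemurafenib. IFIT2, an RNA-binding antiviral protein, rose from 2.436 ± 0.0215 CPM to 26.36 ± 6.88 after vemurafenib and 13.21 ± 1.19 after cisplatin. TRIM22, an antiviral ubiquitin ligase, rose from 2.086 ± 0.526 to 10.7 ± 2.14 and 25.84 ± 3.17 CPM. Between the drugs the list split, with 6 targets higher after vemurafenib and 9 lower, where 23.0% of all genes were called higher and 20.8% lower. The count of higher targets is near its share over all genes. IFIT2 was higher after vemurafenib than after cisplatin (log2 difference 1.00, adjusted p = 0.000899), while TRIM22 was lower (-1.27, adjusted p = 0.000165), and STAT2 and IRF9 were both lower. The split was 10 higher without vemurafenib replicate 1, and 3, 4 and 5 lower without cisplatin replicate 1, 2 and 3. IFIT genes are close relatives, so the assignment of reads between them is uncertain.

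Interferon-gamma targets, genes that IRF1 or STAT dimers bind, moved less evenly. Of 19 tested, 11 rose and 3 fell after vemurafenib (median 0.50), and 6 rose and 3 fell after cisplatin (median 0.15). For all genes the shares were 22.0% higher and 22.9% lower after vemurafenib, and 22.7% and 23.5% after cisplatin. CIITA, the master regulator of class II antigen presentation, rose from 37.28 ± 3.78 CPM to 169.8 ± 13.4 and 182.6 ± 37 (log2 changes 2.19 and 2.29, adjusted p = 7.45e-07 and 3.63e-07). The guanylate-binding protein GBP2 rose after cisplatin (1.00, adjusted p = 0.000173) and was at 41.79 ± 3.35 against 40.52 ± 8.38 CPM after vemurafenib (adjusted p = 0.824). The chemokine CXCL10 rose after vemurafenib by 2.26 and was at 0.699 ± 0.27 against 1.042 ± 0.419 CPM after cisplatin (adjusted p = 0.259). Its relative CXCL11 was at 1.917 ± 0.295 CPM in controls and fell after both drugs, to 0.5002 ± 0.181 after vemurafenib and 0.6142 ± 0.258 after cisplatin (log2 changes -1.92 and -1.63).

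STAT3 targets were mostly lower after vemurafenib. Of 15 tested, 1 rose and 10 fell after vemurafenib (median -0.80), and 1 rose and 4 fell after cisplatin (median -0.24), or 2 rose without cisplatin replicate 3. The cisplatin count of falls is near the 23.5% of all genes called lower there, and 22.9% were called lower after vemurafenib. PIM1, a survival kinase, fell from 18.45 ± 1.35 CPM to 1.828 ± 0.341 and 0.9305 ± 0.292. CCND1, which encodes cyclin D1, fell from 809.0 ± 19.4 CPM to 134.5 ± 41.5 and 360.2 ± 49. The survivin gene BIRC5 fell by 5.73 on the log2 scale after cisplatin and 0.80 after vemurafenib (adjusted p = 0.0175). The latter call ended with log2(TPM + 0.1) and on removal of control replicate 3, vemurafenib replicate 2 or vemurafenib replicate 3 (up to 0.083). The protease inhibitor TIMP1 moved in opposite directions, from 1336 ± 227 CPM in controls down to 595.4 ± 149 after vemurafenib (-1.17, adjusted p = 0.000498) and up by 2.77 after cisplatin. PIM1, CCND1, FOS and JUNB are targets of other pathways too, ERK among them, and BIRC5 follows the cell cycle. The part of those pathways was not tested.

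**Figure D4:**
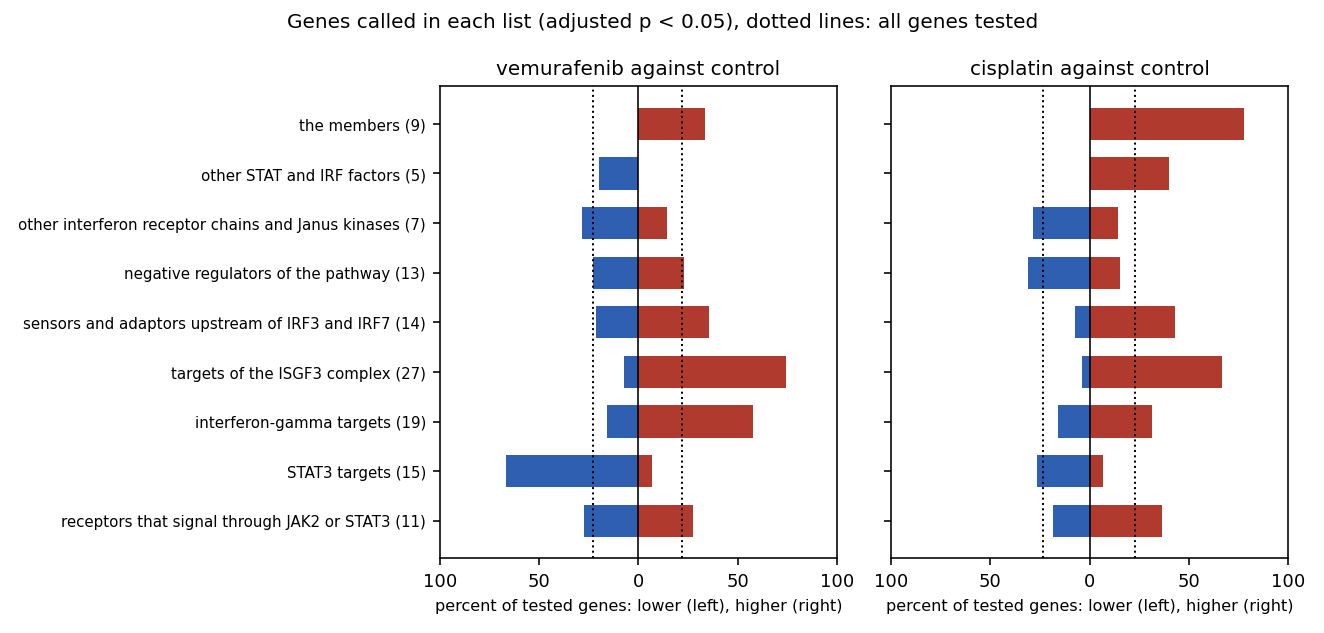
Percent of the tested genes of each list that were called lower (left of 0) or higher (right of 0) after vemurafenib and after cisplatin, with the number tested in brackets; dotted lines are the percentages over all genes tested. Targets of the ISGF3 complex reach far to the right in both panels (20 and 18 of 27), and STAT3 targets to the left after vemurafenib (10 of 15).

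Negative regulators were called in both directions. Of 13 tested, 3 rose and 3 fell after vemurafenib, and 2 rose and 4 fell after cisplatin. Shares over all genes tested were 22.0% higher and 22.9% lower after vemurafenib, and 22.7% and 23.5% after cisplatin. These small counts are not far from those shares. Leaving out control replicate 2 or cisplatin replicate 1 or 2 left 1 rise after cisplatin, and control replicate 1 or 3 or cisplatin replicate 1 or 3 left 2 falls. USP18, which blocks the IFNAR2 chain, rose after vemurafenib from 5.358 ± 0.78 to 9.596 ± 0.328 CPM (log2 change 0.84, adjusted p = 0.000965) and was at 6.178 ± 0.165 after cisplatin (adjusted p = 0.312). SOCS3, the feedback inhibitor that STAT3 induces, was at 19.74 ± 1.85 CPM in controls, 24.04 ± 2.4 after vemurafenib (adjusted p = 0.2) and 8.718 ± 2.27 after cisplatin, where it fell by 1.18 (adjusted p = 0.000278). SOCS2 rose after both drugs, by 0.69 and 0.49 on the log2 scale.

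Receptors that signal through JAK2 or STAT3 went both ways. Of 11 tested, 3 rose and 3 fell after vemurafenib, and 4 rose and 2 fell after cisplatin. The vemurafenib counts are near the shares over all genes (22.0% higher and 22.9% lower). After cisplatin those shares were 22.7% and 23.5%. IL6R, the ligand-binding chain of the IL-6 receptor, rose after vemurafenib from 9.367 ± 0.595 to 45.78 ± 6.35 CPM (log2 change 2.29, adjusted p = 8.36e-07). It was at 9.752 ± 1.93 CPM after cisplatin. The growth hormone receptor GHR rose after cisplatin from 3.7 ± 0.261 to 8.795 ± 1.31 CPM (1.25, adjusted p = 0.000377) and was at 3.089 ± 0.668 after vemurafenib (adjusted p = 0.353). The leptin receptor LEPR fell by 1.17 after vemurafenib and 0.80 after cisplatin. JAK2 itself passed in neither comparison with control.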

How the data were processed

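RNA-seq libraries were grouped by the treatment labels. Per the labels' protocols, cDNA was primed with random hexamers, amplified and circularised. Strand marking is not stated. The submitters' processing notes name HISAT2 2.0.4 and the build hg38. Which tool counted the reads, and on which annotation, is not given in the sources used here. In 1 table the authors deposited all values, namely estimated counts, TPM and FPKM per gene and library. The deposited estimated counts were not whole in 13.6% to 14.1% of values (tolerance 1e-06) and were rounded. The authors' TPM values, a unit taken from the header, served for ratios, the order of levels and alternatives. The deposited FPKM values gave each gene's effective length through the ratio of counts to FPKM. Gene identifiers of 18153 of 18430 genes matched RefSeq GRCh38.p14, the source of coordinates, symbols and promoter sequences.

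Genes were filtered with filterByExpr defaults (13989 kept), scaled by TMM and fitted in 1 model of group means over all 9 libraries with edgeR 4.0.16 (R 4.3.3, quasi-likelihood F test, two-sided, 6 residual degrees of freedom, biological coefficient of variation 0.139). P-values were adjusted by Benjamini-Hochberg over all genes tested, with a threshold of 0.05. A standard error is the log2 change divided by the square root of F. Alternatives (19) were total counts only, RLE size factors, no filter, a filter of 1 CPM in 3 libraries, the replicate block, limma-voom (limma 3.58.1), log2(TPM + 1), log2(TPM + 0.1), only the 6 libraries compared, DESeq2 1.42.0 and each library left out. The fit was tested on simulated counts. The members, the gene lists and the tests were chosen with earlier results of these data known. All 9 members are named. From each list up to 4 called genes per comparison were eligible by size of change, provided that the higher group had a mean of 10 or more counts, and lists of 10 or fewer genes could be named whole; genes most like a member are the 3 with the highest Pearson r. Depth and replication set the precision, and intervals are standard errors over 3 libraries a group.

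Same-numbered libraries were checked for pairing by the correlation of their deviations from the group means across genes. It was 0.162, 0.131 and 0.171 for vemurafenib and control, where the highest values with another number were -0.075, -0.052 and -0.019. For cisplatin and control it was 0.187, 0.088 and 0.126, against -0.075, -0.017 and 0.037. The numbers are thus a possible pairing in both comparisons with control, from the data and not from a label. Between the drugs it was 0.159, 0.02 and 0.09, against 0.003, 0.128 and -0.022. The main fit had no block, and the replicate block was an alternative. No 2 libraries were duplicates of each other. A comparison of protein sequences, planned at the start, was not analysed here. Some genes of the lists are not reported here and enter none of the list counts.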

Additional observations from a re-analysis of the deposited data

How the results depend on the processing

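Of 513 values of the 9 genes under the alternatives, 465 kept direction and side of the threshold, 11 passed where the reported value had not, 33 lost the call and 4 changed sign. The sign changes were in log2 changes after vemurafenib. IFNAR1 was at 0.049 with total counts only and between -0.169 and 0.107 over the left-out libraries, with the upper value without vemurafenib replicate 1. JAK2 over the left-out libraries ranged from -0.306 to 0.124, again highest without that library. IRF7 over the left-out libraries ranged from -0.028, without control replicate 3, to 0.137, and its highest value under any alternative was 0.184. None of these passed. Members that rose after vemurafenib numbered 5 with total counts only, against 3, and 3 to 5 over the left-out libraries, while those that fell numbered 0 to 1. Of all 13989 genes tested, 3972 were called higher after vemurafenib with total counts only, against 3082 in the main fit. Total counts moved the median of all genes in that comparison from 0.01 to 0.11 on the log2 scale. Members lower after vemurafenib than after cisplatin numbered 2 with log2(TPM + 1), 2 with log2(TPM + 0.1) and 3 to 6 over the left-out libraries. The TPM counts are near the shares of all genes called lower on those scales, 2462 and 2443 of 13989. Those that rose after cisplatin numbered 5 to 8. With the replicate block 3 members rose after vemurafenib, and of the members' calls it changed that of JAK2 after cisplatin (adjusted p = 0.0252) and no other. For the 54 pathway genes named or eligible, 1729 of 1783 values kept their call and 54 lost it. The cause was not tested for any of these shifts. The cisplatin calls of IFNAR1 and IRF2 passed narrowly in the main fit, which takes its spread from all 9 libraries. Without vemurafenib replicate 1 the edgeR log2 changes were 0.363 and 0.345, with adjusted p = 0.000261 and 0.0056. IRF7, the least abundant member in CPM, is the most exposed to counting error.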

Other observations

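Several genes of the same pathway differed between the treated groups in the direction opposite to STAT2 and IRF9. SOCS3, an inhibitor of JAK signalling, was higher after vemurafenib than after cisplatin by 1.46 on the log2 scale (adjusted p = 5.22e-05), and the IRF2 cofactor IRF2BP2 by 0.90 (adjusted p = 0.000279). USP18 was higher by 0.63 (adjusted p = 0.00559). The DNA-sensing adaptor STING1 stood at 51.85 ± 16.6 CPM after vemurafenib and 28.37 ± 1.94 after cisplatin (SD, n = 3), a log2 difference of 0.87 (adjusted p = 0.00312), and passed against control after neither drug (adjusted p = 0.0854 and 0.076). Without vemurafenib replicate 1 the STING1 difference between the drugs was 0.596 (adjusted p = 0.0014). CXCL10 was at 5.04 ± 0.679 CPM after vemurafenib and 0.699 ± 0.27 after cisplatin, and CASP1, the protease that matures IL-1 beta, at 1.475 ± 0.5 and 0.497 ± 0.0967. Doses and times differed between the drugs.

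HERC5, the ligase that attaches ISG15 to proteins, was 1 of the 2 ISGF3 targets that fell after vemurafenib. A different target was the 1 that fell after cisplatin. HERC5 was at 5.611 ± 0.167 CPM in controls, 1.805 ± 0.243 after vemurafenib (log2 change -1.63, adjusted p = 2.74e-05) and 5.473 ± 0.226 after cisplatin (adjusted p = 0.88). ISG15 itself rose after both drugs, by 0.85 and 0.99, and was picked out beside HERC5 after its values were seen.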
